A study of Homo sapiens with 8 samples.

Results

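RUNX1, RUNX2 and RUNX3 encode the RUNX transcription factors, and CBFB encodes their common partner, CBFβ. Every probe set whose array annotation named exactly 1 gene, and that gene one of these, was taken and followed separately over 0, 2 and 10 h. This gave 11 of the 54613 probe sets that are not controls, of which 6 read RUNX2, 3 read RUNX3 and 2 read CBFB. No probe set met the rule for RUNX1. The family was chosen by a measured value, the higher RUNX2 signal of the treated arrays against 0 h, so the RUNX2 values and standard errors are a description. Counts of limma calls that include RUNX2 probe sets are set beside the share over all probe sets, and nothing is read from them.

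The cells were CCRF-CEM-C7-14, a human line of T-cell acute lymphoblastic leukaemia in which glucocorticoids act. They were grown in RPMI-1640 with fetal bovine serum and moved to the same medium with charcoal-stripped serum, from which most steroids have been removed. They were harvested before the hormone (0 h, 3 arrays) or after 2 h (3 arrays) or 10 h (2 arrays) in 1 µM dexamethasone, a synthetic glucocorticoid that activates the glucocorticoid receptor. Vehicle-treated cells at the later times were not analysed here, so an effect of the hormone and one of the time spent in the new medium cannot be told apart.

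RUNX proteins bind DNA through the Runt domain, and CBFβ, which does not touch DNA itself, raises their affinity for it and shields RUNX1 from degradation. RUNX1 is needed for blood stem cells and early T-cell development, RUNX3 acts in CD8 T cells and natural killer cells, and RUNX2 is best known as the master regulator of bone formation. RUNX genes are transcribed from a distal and a proximal promoter, which give proteins with different first residues.

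All 12 T-lineage markers examined, among them CD3D, LCK and PTCRA, had untreated means above the highest Bacillus control, a probe set with no human target that reached a log2 value of 4.73. CD2 was at background level, with a mean of 4.78 at 0 h and 4.56 at 10 h. The mean of the 12 lay between 8.74 and 9.11 on every array. Of 5 osteoblast markers measured 2 exceeded that control, and the same held for 2 of 5 myeloid, 3 of 4 B-cell and 2 of 4 natural killer markers. Over all genes 13130 of 19775 did so, so a value above the control says little about expression. The B-cell marker CD79A had a higher untreated mean than the T-lineage markers CD4, CD5, CD7, CD8A and PTCRA. Untreated means were 7.39 for NKG7 (natural killer) and 7.09 for COL1A1 (osteoblast). Outside the T lineage, the other markers above the control had at most 5.42 (NCAM1). The 10 h arrays of CD79A and NKG7 lay wholly above those of 0 h. Their differences of 0.69 ± 0.22 (SE) and 0.39 ± 0.19 were not called in limma. Array means of the T-lineage list ran from 9.07 to 9.10 at 10 h, against 8.81 to 9.04 at 0 h. At 2 h they ran from 8.74 to 9.11, which spans the 10 h range. Those of the natural killer list ran from 5.36 to 5.46 at 10 h, against 5.09 to 5.31 at 0 h and 5.02 to 5.34 at 2 h. The other 3 lists overlapped between the times. The part of these lists in the results below was not tested. TSC22D3, a direct glucocorticoid target, was higher by 2.78 ± 0.20 (SE) at 2 h and by 4.30 ± 0.22 at 10 h than at 0 h, and FKBP5, another target, by 0.72 at 2 h and 2.16 ± 0.22 at 10 h, all on the log2 scale. In limma the adjusted p of FKBP5 was 1.00 at 2 h and 0.000185 at 10 h. Array medians ran from 4.68 to 5.01. The 3 arrays with the lowest medians (at most 4.77, against at least 4.91 for the other 5) were replicate 2 at 0 h, replicate 3 at 2 h and replicate 1 at 10 h, so each time holds 1 of them, and values within each set are given where they differ from the pooled ones.

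The start regions of the RUNX genes are shown because RUNX2 carries the large differences in these data and because its distal window holds several copies of the letters that RUNX proteins bind. RefSeq (GRCh38.p14) start windows, from 250 bases before the start of transcription to 50 after it, were available for 3 of the 4 genes, and CBFB had none in the table used. RUNX1 had 1 window, at chr21:34888650-34888949 on the minus strand, which held none of the motifs searched here and is not printed, since no probe set read RUNX1 alone. The other promoter of RUNX1 had no window and was not searched. The 4 windows below are written 5′ to 3′ on the gene's strand in lower case, with each match to TGTGGT, the core RUNX sequence, or to its reverse complement ACCACA in capitals. The RUNX2 windows lie on the plus strand at chr6:45328080-45328379 (distal) and chr6:45422025-45422324 (proximal). The RUNX3 windows lie on the minus strand at chr1:24964961-24965260 (distal) and chr1:24930227-24930526 (proximal). The names distal and proximal were given here by position along the gene.
RUNX2 distal: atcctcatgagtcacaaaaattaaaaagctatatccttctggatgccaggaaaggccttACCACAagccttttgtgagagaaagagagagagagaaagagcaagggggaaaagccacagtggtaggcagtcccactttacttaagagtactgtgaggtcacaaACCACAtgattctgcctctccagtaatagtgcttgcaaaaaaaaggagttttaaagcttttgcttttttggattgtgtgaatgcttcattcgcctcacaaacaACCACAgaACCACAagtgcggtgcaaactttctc
RUNX2 proximal: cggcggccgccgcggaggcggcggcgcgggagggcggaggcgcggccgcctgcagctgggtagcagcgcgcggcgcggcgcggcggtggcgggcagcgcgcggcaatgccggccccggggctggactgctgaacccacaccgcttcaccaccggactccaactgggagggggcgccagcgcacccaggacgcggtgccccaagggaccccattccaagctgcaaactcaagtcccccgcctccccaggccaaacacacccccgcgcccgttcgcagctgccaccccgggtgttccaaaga
RUNX3 distal: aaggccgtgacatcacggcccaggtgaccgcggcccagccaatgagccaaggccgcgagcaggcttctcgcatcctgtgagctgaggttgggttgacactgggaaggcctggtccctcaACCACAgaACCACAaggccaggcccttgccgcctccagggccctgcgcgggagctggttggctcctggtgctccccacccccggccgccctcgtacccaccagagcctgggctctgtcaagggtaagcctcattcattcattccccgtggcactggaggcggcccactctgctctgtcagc
RUNX3 proximal: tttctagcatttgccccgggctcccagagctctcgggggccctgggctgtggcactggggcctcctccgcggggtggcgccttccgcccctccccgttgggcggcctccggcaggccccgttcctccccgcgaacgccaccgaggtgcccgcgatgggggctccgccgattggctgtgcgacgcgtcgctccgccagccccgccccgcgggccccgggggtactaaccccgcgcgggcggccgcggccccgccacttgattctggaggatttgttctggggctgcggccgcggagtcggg

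The RUNX2 distal window held 4 matches to TGTGGT, all of them on the strand opposite to the gene. On the gene's strand they begin 191 and 87 bases before the start and at bases 17 and 25 of the transcript. Over both strands 13.07% of 35116 windows held at least 1 match, 1.307% at least 2 and 0.01424%, or 5 windows, at least 4. Of these 4 matches, 3 extended to TGTGGTT, which contains the shorter motif. At least 3 such longer matches were found in 1 window of the 35116, the RUNX2 distal one, whereas 4.269% of windows held at least 1. Because its matches were part of the reason to show that window, its place among all windows is a description. The RUNX2 distal window is also poorer in G and C, at 42.7%, than the proximal window at 76.0%.

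The RUNX3 distal window held 2 matches to TGTGGT, beginning 131 and 123 bases before the start, and both extended to TGTGGTT. In both distal windows a pair of matches stands 2 bases apart in the same 14 letters, ACCACAGAACCACA, at base 17 of the RUNX2 transcript and 131 bases before the RUNX3 start. That 14-letter run, which was searched for after the windows had been read, occurred on either strand in 3 of the 35116 windows, those of RUNX2, RUNX3 and the olfactory receptor gene OR52N2. Neither proximal window held TGTGGT. The full glucocorticoid receptor palindrome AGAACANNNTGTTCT was in none of the 4 windows and in 1 window of all 35116, and its right arm TGTTCT (14.79% of windows) was found at base 22 of the RUNX3 proximal transcript and in no other of the 4. The AP-1 motif TGACTCA, present in 4.949% of windows, was found once in the RUNX2 distal window and in none of the other 3. A match is a description of letters and not of a bound site, and the windows say nothing about elements outside them.

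RUNX2 signal was higher in dexamethasone on some of its probe sets and not on others. On probe set 232231_at the log2 values were 5.38, 4.63 and 4.89 at 0 h, 8.16, 7.48 and 7.43 at 2 h, and 10.57 and 9.79 at 10 h. The 3 times formed separate ranges, with every 2 h array above every 0 h array and both 10 h arrays above every 2 h array. The difference from 0 h was 2.72 ± 0.26 (SE) at 2 h, a 6.61-fold higher signal with a 95% interval of 4.51 to 9.67. At 10 h it was 5.21 ± 0.29, or 37.1-fold with an interval of 24.2 to 56.8. The 0 h values lay near the highest Bacillus control of 4.73, with replicate 2 below it, so these folds start from near background signal. Between 10 h and 2 h it was 2.49 ± 0.29, or 5.62-fold. In bulk RNA a change in every cell and a change in the share of cells that hold the transcript cannot be told apart.

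The 3 arrays with the lowest medians and the other 5 gave similar differences at 2 h on this probe set, 2.80 (1 array against 1) and 2.69 (2 arrays against 2). The 10 h difference from 0 h was 5.94 in the low-median set (1 against 1) and 4.66 in the other set (1 against 2). Of 54613 probe sets, 232231_at had the 7th highest difference between 10 h and 2 h.

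Probe set 216994_s_at, also of RUNX2, read 3.38, 3.41 and 3.59 at 0 h, 4.60, 4.17 and 3.46 at 2 h, and 5.44 and 5.86 at 10 h. Its 10 h arrays lay above all others, while replicate 3 at 2 h fell within the 0 h range. At 0 h and 2 h every value was below 4.73, the highest Bacillus control, so the differences of 0.62 ± 0.24 (SE) at 2 h and 2.19 ± 0.27 at 10 h against 0 h start from background signal. The difference between 10 h and 2 h was 1.57 ± 0.27. Within the low-median set and the other 5 arrays the 2 h difference was 0.05 and 0.90.

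The other 4 RUNX2 probe sets had smaller differences. Probe set 221282_x_at read 4.99, 5.18 and 5.51 at 0 h, 5.42, 5.77 and 4.89 at 2 h, and 6.11 and 6.28 at 10 h. Probe set 236858_s_at read 4.88, 4.18 and 4.39 at 0 h, 4.54, 4.76 and 4.63 at 2 h, and 5.88 and 5.29 at 10 h. On both, the 2 h arrays overlapped those at 0 h and the 10 h arrays lay above them. The differences at 10 h against 0 h were 0.97 ± 0.25 (SE) and 1.10 ± 0.24, and those at 2 h against 0 h were 0.13 and 0.16. On 236858_s_at replicates 2 and 3 at 0 h were below the highest Bacillus control, so its differences also start from near background signal.

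Probe set 221283_at read 5.07, 4.86 and 5.14 at 0 h, 5.09, 5.32 and 5.09 at 2 h, and 4.96 and 4.996 at 10 h. Its 0 h arrays overlapped those of both later times. The differences from 0 h were 0.14 ± 0.17 (SE) at 2 h and −0.05 ± 0.19 at 10 h. The 95% interval at 10 h ran from −0.45 to 0.36. Its values, from 4.86 to 5.32, lay little above the highest Bacillus control. Whether 221283_at detects RUNX2 transcript in these cells was not tested, so its values cannot show that RUNX2 did not rise. Probe set 236859_at stayed at or below 4.21 on all 8 arrays, under the highest Bacillus control, with differences of −0.35 at 2 h and 0.39 at 10 h. Over the 6 RUNX2 probe sets the difference at 10 h against 0 h thus ran from −0.05 to 5.21, with a median of 1.03. Suffixes with s or x mark probe sets whose probes match several transcripts or may cross-hybridise. Of the 3 RUNX2 probe sets without such a letter, 232231_at showed the large difference. The probe sets 221283_at and 236859_at, which lay little above and below the highest Bacillus control, did not. The sources used here do not give the place of each probe set in the RUNX2 transcripts, so no probe set is tied to the distal or the proximal promoter.

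**Figure D1:**
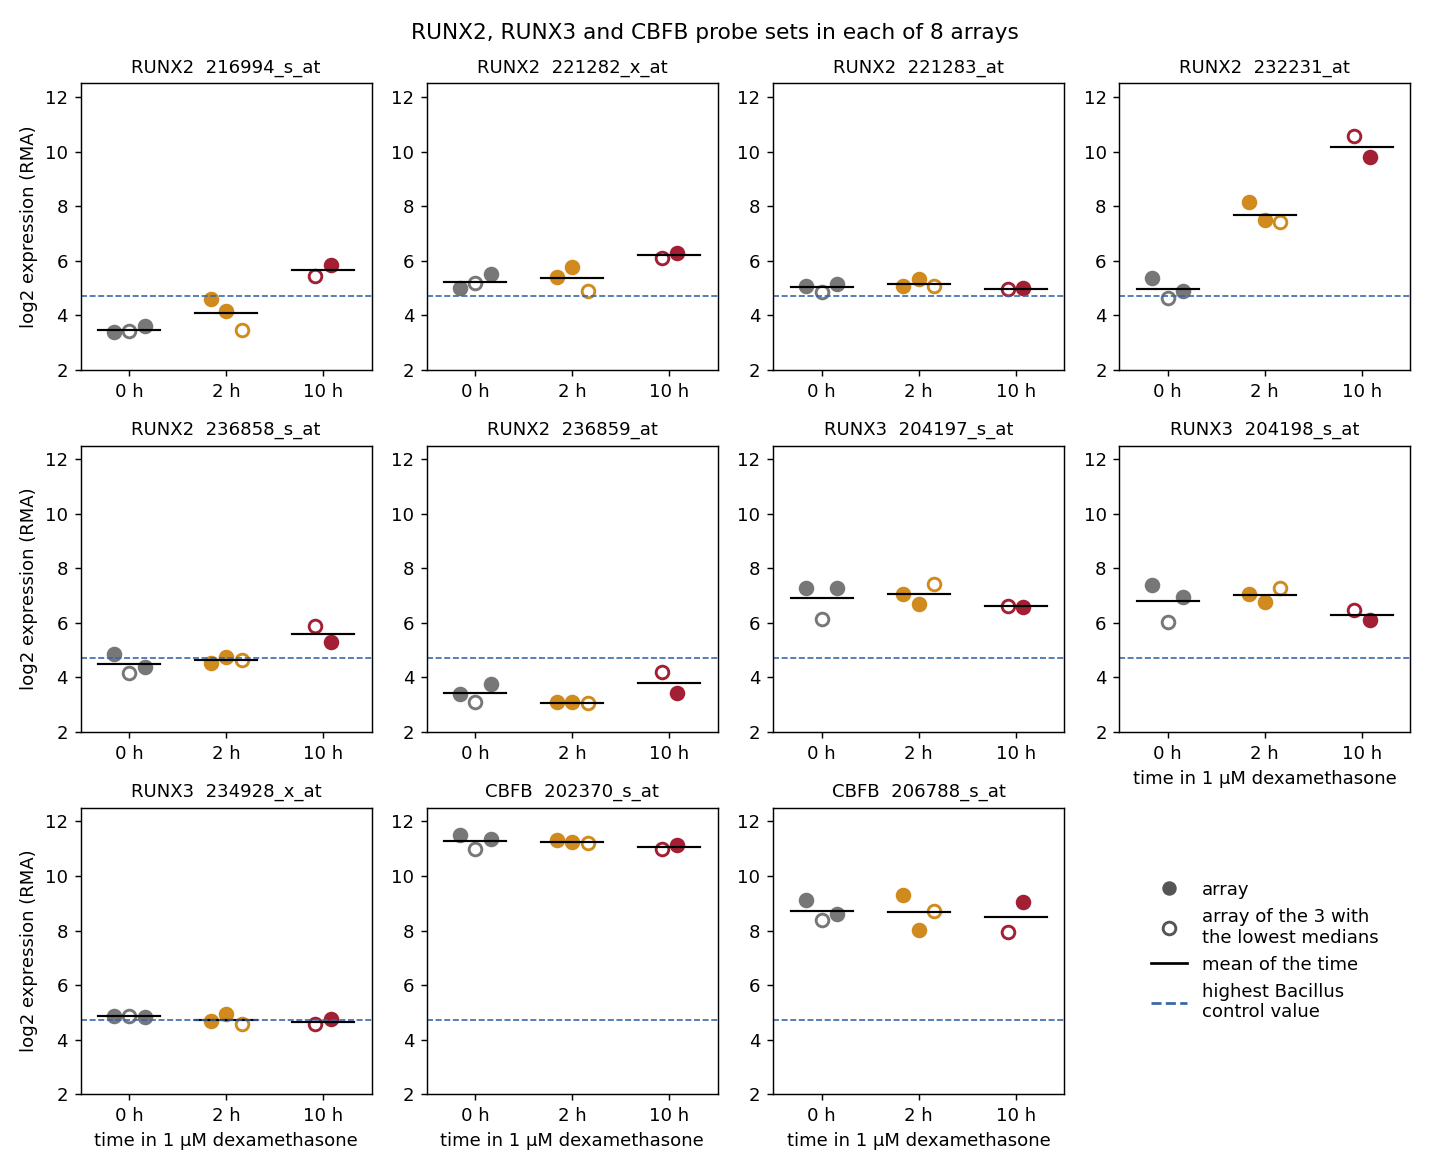
Log2 expression (RMA, vertical axis) of the 11 probe sets on each of the 8 arrays by time in 1 µM dexamethasone (horizontal axis). Points are arrays, open circles are the 3 arrays with the lowest medians, black lines are means and the dashed line is the highest Bacillus control at 4.73. The 3 times separate on RUNX2 232231_at, and the RUNX3 and CBFB arrays overlap between 0 h and 2 h.

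RUNX3, the RUNX gene of cytotoxic T-cell differentiation, was above the highest Bacillus control on all 8 arrays on 2 of its 3 probe sets and was not called in limma. Probe set 204197_s_at read 7.28, 6.13 and 7.29 at 0 h, 7.08, 6.71 and 7.43 at 2 h, and 6.61 and 6.60 at 10 h. Probe set 204198_s_at read 7.39, 6.04 and 6.94 at 0 h, 7.08, 6.75 and 7.30 at 2 h, and 6.48 and 6.10 at 10 h. On both, the 0 h arrays spanned the values of the 10 h arrays, because replicate 2 at 0 h was the lowest array of all, and the 10 h arrays lay below every 2 h array.

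The RUNX3 difference at 2 h against 0 h was 0.17 ± 0.28 (SE) on 204197_s_at and 0.25 ± 0.28 on 204198_s_at. Against 0 h, the 10 h difference was −0.29 ± 0.31, with a 95% interval of −0.95 to 0.36, and −0.50 ± 0.31, with an interval of −1.16 to 0.16. None was called (limma, adjusted p = 1.00 for each), and the wider interval reaches −1.16, so a fall of that size is not excluded. Between 10 h and 2 h the values were −0.47 ± 0.31 and −0.75 ± 0.31, and 204198_s_at had an unadjusted p of 0.0284 and an adjusted p of 1.00 in limma. The sign at 2 h followed the array set: without the 3 arrays of lowest median the 2 h differences were −0.39 and −0.25, whereas the single low-median pair gave 1.30 and 1.26. For 10 h against 0 h the other 5 arrays gave −0.68 and −1.06, against 0.48 and 0.44 in the low-median pair. The third RUNX3 probe set, 234928_x_at, was close to the highest Bacillus control, with values of 4.83 to 4.87 at 0 h, 4.57 to 4.94 at 2 h, and 4.56 and 4.75 at 10 h. Its 10 h arrays lay below the 0 h arrays, a difference of −0.20 ± 0.19 (SE) that was not called (limma, adjusted p = 1.00).

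CBFB, the partner subunit, was far above background and did not change by a called amount. Probe set 202370_s_at read 11.49, 10.99 and 11.37 at 0 h, 11.33, 11.23 and 11.21 at 2 h, and 10.99 and 11.15 at 10 h. The 3 times overlapped except that both 10 h arrays lay below the 2 h arrays. The difference against 0 h was −0.03 ± 0.18 (SE) at 2 h, with a 95% interval of −0.41 to 0.36, and −0.22 ± 0.20 at 10 h, with an interval of −0.65 to 0.21. In limma both had an adjusted p of 1.00.

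Probe set 206788_s_at of CBFB read 9.13, 8.40 and 8.61 at 0 h, 9.32, 8.03 and 8.74 at 2 h, and 7.95 and 9.06 at 10 h. Its arrays of a time differed more from each other than the times did, and the differences against 0 h were −0.02 ± 0.32 (SE) at 2 h and −0.20 ± 0.36 at 10 h (limma, adjusted p = 1.00 for both). The sign at 10 h was positive, at 0.19, in the 5 arrays outside the low-median set.

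**Figure D2:**
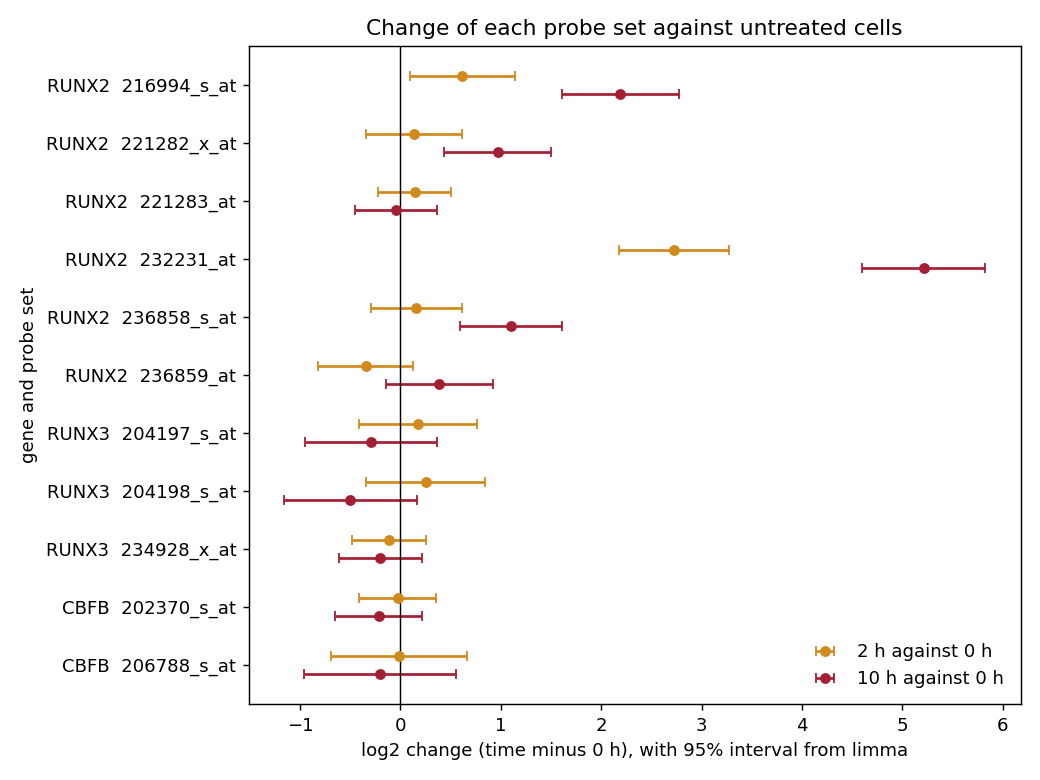
Log2 change of each of the 11 probe sets at 2 h and at 10 h against 0 h (horizontal axis), with 95% intervals from limma as bars. The 10 h interval of RUNX2 232231_at runs from 4.60 to 5.83, and the intervals of all RUNX3 and CBFB probe sets cover 0.

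Over the 11 probe sets, 1 was called higher at 2 h against 0 h at an adjusted p below 0.05 in limma, where 0.00916% of all probe sets were called (5 of 54613, all higher). In each comparison of 10 h, 2 of 11 were called, both higher. Over all probe sets 0.251% were called at 10 h against 0 h, with 0.245% called higher, and 0.108% at 10 h against 2 h, with 0.106% called higher. The called probe sets were 232231_at in each comparison and 216994_s_at in both that involve 10 h, all of RUNX2, whose known behaviour led to the choice of the family, so nothing is read from these counts. At an unadjusted p below 0.05, 2 of 11 passed at 2 h against 0 h (1.10% of all), 4 at 10 h against 0 h (2.68%) and 6 at 10 h against 2 h (2.53%).

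The arrays of 10 h lay wholly above those of 0 h on 4 of 11, all of RUNX2, and wholly below them on 1, of RUNX3. Over all probe sets 5.92% lay above and 6.19% below. For 10 h against 2 h, 5 of 11 lay above and 4 below, beside 5.0% above and 8.35% below over all. For 2 h against 0 h, 1 of 11 lay above and none below, beside 2.77% above and 1.37% below over all. The median difference over the 11 was 0.14 at 2 h and −0.05 at 10 h against 0 h, where all probe sets had medians of 0.01 and −0.03. The comparisons with 0 h share the untreated arrays.

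The genes whose pattern was most like that of RUNX2 232231_at were sought among 13065 other genes whose brightest probe set exceeded the highest Bacillus control on average. The measure was Pearson's r over the 8 arrays, which fall into 3 times and are the same for every gene, so r is a description. TNFSF8, which encodes the CD30 ligand, was the most alike (r = 0.991). It read 6.32, 5.64 and 5.87 at 0 h, 8.24, 7.97 and 7.34 at 2 h, and 10.01 and 9.89 at 10 h. Like RUNX2, it had separate ranges at the 3 times, and within each time its arrays stood in the same order as those of RUNX2.

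Next came DEGS1, a dihydroceramide desaturase (r = 0.978), TSC22D3 (r = 0.971) and CLPP, a mitochondrial protease (r = 0.970). They were followed by IL10, an anti-inflammatory cytokine (r = 0.967), and USP20, a deubiquitinase (r = 0.960). The measure compares the shape over the arrays and not the size of a difference. After 10 h TNFSF8 was higher by 4.01, TSC22D3 by 4.30 and IL10 by 1.72 than at 0 h, whereas DEGS1, CLPP and USP20 were higher by 0.66, 0.65 and 0.81. IL10 read 4.29, 4.05 and 4.58 at 0 h, all below the highest Bacillus control, so it entered through its treated arrays and its difference starts from background signal.

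The closest patterns to RUNX3 204197_s_at were those of RAB37, a small GTPase (r = 0.956), SGPP1, a sphingosine 1-phosphate phosphatase (r = 0.951), and SLC26A2, a sulphate transporter (r = 0.945). All 3 were lowest among the 0 h arrays in replicate 2, as RUNX3 was. For CBFB 202370_s_at they were PATL1, an mRNA decay factor (r = 0.983), EDEM3, an endoplasmic reticulum mannosidase (r = 0.981), and RASSF3, a Ras-association domain protein (r = 0.980). These 3 also had their lowest 0 h value in replicate 2, which is one of the low-median arrays, and the part of that array in the likeness was not tested.

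**Figure D3:**
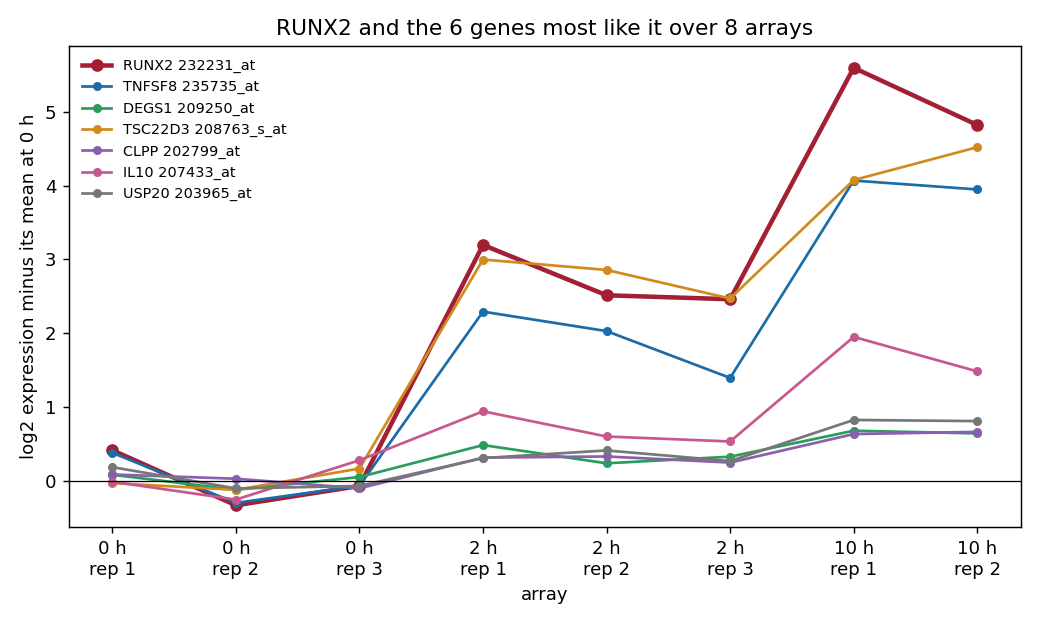
Log2 expression minus the mean at 0 h (vertical axis) of RUNX2 232231_at and the 6 genes with the highest Pearson r to it, on each of the 8 arrays (horizontal axis). Lines join a gene's arrays only to guide the eye. TNFSF8 and TSC22D3 reach differences of 4.01 and 4.30 at 10 h, against 5.21 for RUNX2.

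Genes that work with RUNX proteins or are known as their targets were read from 5 lists written from general knowledge. The lists were chosen with earlier results of these data known, so calls among their genes are a description. They held 85 genes, of which 78 were measured by a single-symbol probe set. Each gene was represented by its brightest probe set. None of the 78 was called at 2 h against 0 h and 1 was called at 10 h against 0 h, where 0.0202% and 0.314% of all 19775 genes were called at their brightest probe set. At 10 h against 2 h 1 of the 78 was called, IL7R, where 0.131% of all genes were. The median difference over the 78 was 0.04 at 2 h and −0.03 at 10 h, beside 0.02 and −0.02 over all genes.

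Among corepressors and coactivators of RUNX proteins, 19 of 21 were measured and none was called at either time. The list holds the TLE corepressors, the ETO family, histone deacetylases and the acetyltransferases EP300 and CREBBP. Its median difference was 0.08 at 2 h and −0.02 at 10 h. CBFA2T3, an ETO-family corepressor, read 7.36 and 7.31 at 10 h, against 8.22, 7.92 and 7.96 at 0 h. Its 10 h arrays lay below the others, but the difference of −0.70 ± 0.20 (SE) was not called in limma (adjusted p = 0.463). TLE5, a short member of the TLE family, had 0.36 ± 0.21, with both 10 h arrays above the 0 h arrays, and KAT6A, an acetyltransferase that binds RUNX1, had −0.35 ± 0.23 with arrays that overlapped. At 2 h the leading genes were the coactivator WWTR1 at 0.32 and the corepressor component SIN3A at 0.25. The 3 probe sets of WWTR1 ran from −0.23 to 0.32 and the 4 of SIN3A from −0.23 to 0.25. WWTR1 read 4.88, 4.64 and 5.24 at 0 h, near the highest Bacillus control, so its difference starts from near background signal. In limma TLE5, KAT6A, WWTR1 and SIN3A each had an adjusted p of 1.00.

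Of 9 regulators of RUNX protein stability or activity, such as the SMURF ubiquitin ligases, 8 were measured and none was called. SMAD3, a TGF-β signal transducer that binds RUNX proteins, had 0.55 ± 0.22 (SE) at 10 h against 0 h, and the ubiquitin ligase WWP1 had −0.35. SMAD3 read 4.94, 4.49 and 5.15 at 0 h, near the highest Bacillus control, so its difference starts from near background signal. Its 4 probe sets ran from 0.13 to 0.55. At 2 h CDK6 had 0.12 and SMURF1 −0.11. Of 14 transcription factors that act with RUNX1 at T-lineage enhancers, 13 were measured and none was called. The ETS factor FLI1 had 0.66 ± 0.25 at 10 h, with −0.30 to 1.05 over its 6 probe sets, and LEF1, a Wnt-pathway factor, had 0.48 ± 0.20. The brightest LEF1 probe set was not called, while 1 of its 3 probe sets was. When the probe sets of each gene were averaged instead, LEF1 was higher by 0.97 ± 0.20 and called (limma, adjusted p = 0.0276). At 2 h FLI1 had 0.25 and TAL1, a bHLH factor, 0.20.

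Of 28 T-cell and blood target genes of RUNX1 or RUNX3, 26 were measured and IL7R was the single called gene. IL7R encodes the α chain of the interleukin-7 receptor, which supports lymphocyte survival. It read 5.50, 5.55 and 5.79 at 0 h, 6.13, 6.54 and 5.62 at 2 h, and 8.23 and 8.66 at 10 h. The 10 h arrays lay above all others, by 2.83 ± 0.25 (SE) against 0 h (limma, adjusted p = 5.10e-05) and by 2.35 ± 0.25 against 2 h (adjusted p = 0.000905), and both of its probe sets were called. At 2 h it had 0.48 ± 0.23 (adjusted p = 1.00 in limma), and ITGAL, an integrin chain, had 0.39. Its start window is shown because IL7R is the called gene of the lists, at chr5:35856641-35856940 on the plus strand (RefSeq, GRCh38.p14), with its single TGTGGT in capitals.
IL7R: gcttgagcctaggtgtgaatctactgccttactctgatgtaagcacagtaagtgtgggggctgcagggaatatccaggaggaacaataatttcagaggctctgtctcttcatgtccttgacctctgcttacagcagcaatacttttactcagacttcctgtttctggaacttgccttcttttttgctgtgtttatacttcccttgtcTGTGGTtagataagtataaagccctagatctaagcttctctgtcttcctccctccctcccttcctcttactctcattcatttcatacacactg
The match begins 43 bases before the start and extends to TGTGGTT. Over all 35116 windows 13.07% held at least 1 TGTGGT and 4.269% at least 1 TGTGGTT. Windows of the other list genes were not examined singly, and binding at the match was not tested.

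The list's median difference at 10 h was −0.02, with values from −0.81 ± 0.60 (SE) for RAG1, a recombinase gene whose arrays overlapped between the times, to 2.83 for IL7R. CD8A, the coreceptor gene that RUNX3 is known to activate, read 6.98 and 7.23 at 10 h, against 6.18, 6.48 and 6.08 at 0 h. Its groups did not overlap, but the difference of 0.86 ± 0.22 (SE) was not called (limma, adjusted p = 0.300). CD8A and RAG1 were named after their values had been seen.

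Of 13 skeletal target genes of RUNX2, such as SPP1, SP7 and the collagen genes, 12 were measured and none was called. In untreated cells 5 of the 12 exceeded the highest Bacillus control, beside 13130 of 19775 over all genes. Their differences at 10 h ran from −0.19 for COL10A1 to 0.17 for TNFSF11, both with an adjusted p of 1.00 in limma, with a median of −0.02. At 2 h TNFSF11 had 0.23 and the collagenase gene MMP13 −0.24. The untreated means of COL10A1, TNFSF11 and MMP13 did not exceed the highest Bacillus control, so their differences start from background signal.

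**Figure D4:**
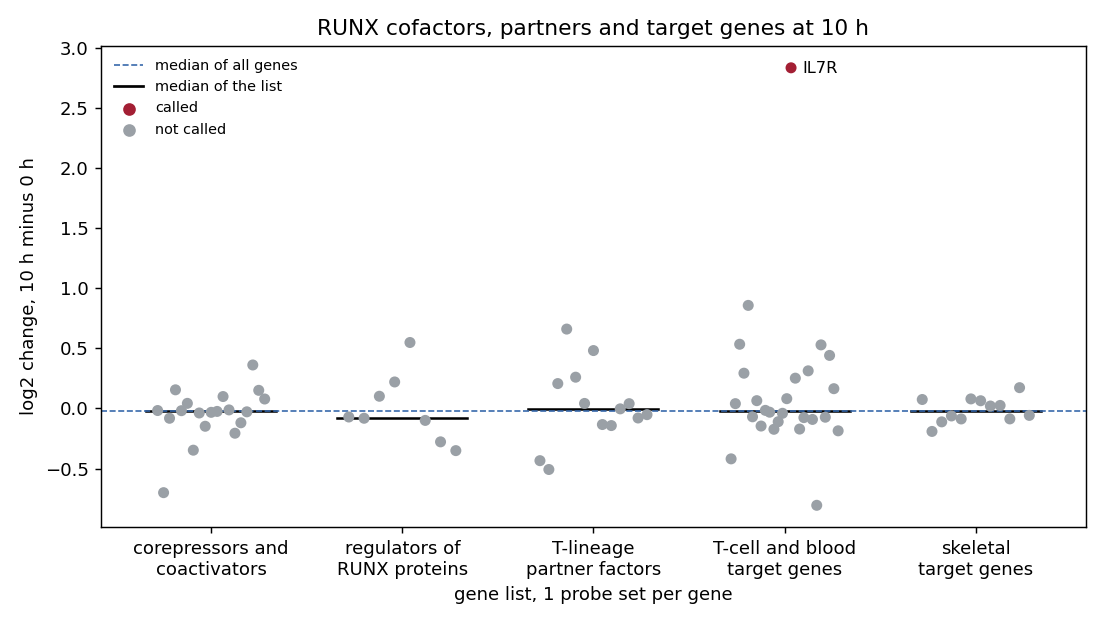
Log2 change at 10 h against 0 h (vertical axis) of each measured gene of the 5 lists at its brightest probe set. Each point is a gene, black lines are list medians and the dashed line is the median of all genes at −0.02. IL7R, at 2.83, is the single called gene.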

How the data were processed

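Biotin-labelled total RNA was read on 8 single-colour arrays. The authors deposited log2 values, 1 per probe set and array, made with RMA per the submitters' processing notes. No version of it is given in the sources. RMA corrects background, normalizes quantiles and summarises probes. The members and lists were chosen with earlier results of these data known. Names came from the platform annotation (41091 probe sets with 1 symbol, 1801 with several, 11721 with none), and 62 controls were left out. The other 54613 entered a fit with limma 3.58.1 under R 4.3.3 (a mean per time, eBayes, 5 residual degrees of freedom), with Benjamini-Hochberg adjustment over all and two-sided calls below 0.05. The fit was tested on simulated data. Arrays of a time are labelled biological replicates, with nothing further on the cultures, so p-values reflect only how these arrays vary, and their small number limits precision. No 2 arrays shared more than 0.269% identical values. Of 7 same-numbered pairs of arrays, 1 had deviations from the time means that correlated above 0.1. The deviations of the 2 arrays at 10 h mirror each other, so this check cannot settle whether replicate numbers pair the arrays. Named list genes were the called ones, or the 2 with the smallest adjusted p, ties being taken by unadjusted p (KAT6A was added); the 6 or 3 genes most like each member were named by r. Alternatives covered centring, quantile normalization, a dim filter, variance models, array weights, probe set choice, a replicate block and leaving out arrays. Start windows came from RefSeq GRCh38.p14.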

Additional observations from a re-analysis of the deposited data

Results flagged for a closer look

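In limma 2 RUNX2 probe sets were called in the contrast between the 10 h and 2 h arrays. On both, the difference from 0 h at 10 h exceeded that at 2 h. The 10 h difference minus the 2 h difference was 2.49 on 232231_at and 1.57 on 216994_s_at. Both 10 h arrays lay above all 3 arrays at 2 h on each of these probe sets, and also on 221282_x_at, 236858_s_at and 236859_at. Those 3 were not called, with differences of 0.83, 0.94 and 0.73 between 10 h and 2 h. On 221283_at the difference was −0.19. RUNX2 was part of the reason for choosing the family, so the values are descriptions. The probe set 216994_s_at was below the highest Bacillus control at 0 h and 2 h.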

How the results depend on the processing

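The RUNX2 signal led to the choice of the family, so its calls under other settings are a description and no support. Over 18 alternatives the difference on RUNX2 232231_at ran from 2.49 to 2.93 at 2 h against 0 h, from 4.66 to 5.60 at 10 h against 0 h and from 1.97 to 2.88 at 10 h against 2 h. The fit without the 3 arrays of lowest median, chosen after seeing the data, left 1, 34 and 1 probe sets called in the 3 comparisons, and 0 members at 2 h against 0 h and at 10 h against 2 h. That fit has fewer arrays. RUNX2 216994_s_at was not called in 8 of 16 alternatives at 10 h against 2 h. Members called fell to 1 at 10 h against 0 h with the dim filter and with unsuffixed probe sets only, which leave out 216994_s_at. Between 10 h and 2 h they fell to 1 with these 2 settings, with the replicate block and with the 2 times alone, and were 1 to 2 when an array was left out. For 10 h against 0 h 221282_x_at was called with array weights (1.12) and 236858_s_at without 0 h replicate 1 (1.30). With the mean of its probe sets RUNX2 had 0.57 at 2 h, which was not called, and 1.64 at 10 h; 2 list genes were then called at 10 h.

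Over all probe sets, 5 were called at 2 h against 0 h, 137 at 10 h against 0 h and 59 between 10 h and 2 h. For 2 h the count was 2 with unsuffixed probe sets, 10 with trended robust variances and 14 with array weights. For 10 h against 0 h it was 74 with unsuffixed probe sets, 215 with a block for the low-median arrays, added after seeing the data, and 70 to 147 with an array left out. It was 70 without either 10 h array. Between 10 h and 2 h it was 92 with trended variances, 92 with that block, 39 with unsuffixed probe sets and 14 to 70 with an array left out, with 38 without 2 h replicate 2, 20 without 10 h replicate 1 and 14 without 10 h replicate 2. The replicate block gave 6, 108 and 49 calls; same-numbered arrays had correlations of deviations from −0.28 to 0.28. The cause of these shifts was not tested.

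Signs turned only among uncalled values. At 2 h against 0 h CBFB 206788_s_at had 0.00057 after median centring. With array weights RUNX2 236858_s_at had −0.11, RUNX3 204197_s_at −0.20 and RUNX3 204198_s_at −0.23 at 2 h. Without the 3 low-median arrays the 2 RUNX3 probe sets had −0.39 and −0.25 at 2 h, RUNX2 236859_at −0.17 at 10 h against 0 h, and CBFB 206788_s_at 0.19 at 10 h against 0 h and 0.39 at 10 h against 2 h. With single arrays left out, values at 2 h against 0 h ran from −0.071 to 0.37 (RUNX2 221282_x_at), −0.21 to 0.37 (RUNX3 204197_s_at), −0.12 to 0.55 (RUNX3 204198_s_at), −0.17 to 0.073 (CBFB 202370_s_at) and −0.33 to 0.32 (CBFB 206788_s_at). The values for 10 h against 0 h ran from −0.13 to 0.015 (RUNX2 221283_at), −0.0041 to 0.78 (RUNX2 236859_at) and −0.76 to 0.35 (CBFB 206788_s_at). Those for 10 h against 2 h ran from −0.18 to 0.0197 (RUNX3 234928_x_at) and −0.74 to 0.37 (CBFB 206788_s_at).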

Other observations

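All 13 probe sets whose annotation includes RUNX1 also list LOC101928269 and LOC100506403, so their signal is not attributed to a gene here. Of these, 9 had a mean above the highest Bacillus control. At 2 h against 0 h their differences ran from −0.27 to 0.21. The values for 10 h against 0 h ran from −0.36 to 0.10, with a median of −0.17, and 10 of the 13 were negative. Over all probe sets 30742 of 54613 were negative, with a median of −0.03. The 13 list the same genes, so they are not independent readings. In limma none was called in any comparison, and 0 of 13 had an unadjusted p below 0.05 in any of the 3.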
